A study of Mus musculus with 7 samples.

Results

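Passage through G1 of the cell cycle is driven by D-type cyclins bound to CDK4 or CDK6 and then by cyclin E bound to CDK2, and it is held back by the Cip/Kip and INK4 inhibitors. Transcripts of 10 such genes were measured here in C2C12 cells, a mouse muscle cell line, that had been given exosomes from other C2C12 cells. The genes were the D-type cyclins Ccnd1, Ccnd2 and Ccnd3, the E-type cyclin Ccne1, the kinases Cdk4 and Cdk6, the Cip/Kip inhibitors Cdkn1a, Cdkn1b and Cdkn1c, and the INK4 inhibitor Cdkn2c. Every probe that the array annotation assigns to these names was taken, which gave 16 of the 39429 probes. Of these, 14 were bright enough to be tested, and the whole array gave 21589 such probes.

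The donor cells were C2C12 myotubes exposed to 0.5 mmol/l palmitate, a saturated fatty acid complexed with albumin, or to albumin (BSA) alone. Exosomes, the small vesicles that cells release, were collected 9 h after the fatty acid had been removed from the medium. The recipients were C2C12 cells, kept for 24 h in serum-free medium with vesicles of BSA-treated donors (EXO-BSA, 4 arrays) or of palmitate-treated donors (EXO-Palm, 3 arrays). Each array held 1 biological replicate, and both groups had received exosomes of myotubes, so no array shows cells without them. All cells come from 1 established line, and the data cover 1 time point. The labels call the recipient cell type myoblast, whereas the study describes myotubes.

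A D-type cyclin with its kinase phosphorylates the retinoblastoma protein, which then releases E2F factors, and cyclin E is among the genes that E2F switches on. The Cip/Kip proteins p21 (Cdkn1a), p27 (Cdkn1b) and p57 (Cdkn1c) bind cyclin-CDK complexes, while INK4 proteins such as p18 (Cdkn2c) bind CDK4 and CDK6. When myoblasts fuse into myotubes they leave the cell cycle for good. p21 and cyclin D3 are well known to accumulate in that step, and cyclin D1 to decline.

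Values are log2 of the background-subtracted signal minus log2 of the 75th percentile of the same array, so 0 is the level of a probe at that percentile. Between 48.5 and 70.3% of the probes exceeded the background clearly on each array, and no spot was saturated. Signals of the arrays correlated at 0.962 to 0.984 within EXO-BSA, 0.948 to 0.97 within EXO-Palm and 0.946 to 0.985 between them. Of 15 myotube genes 15 were well above background on all 7 arrays, among them Myog, Acta1 and Ckm, and of 8 genes of proliferating myoblasts 7 were, with Myf5 above it on none. The summed signal of the myotube genes was 868 to 1020 times the 75th percentile with EXO-BSA and 747 to 864 times with EXO-Palm, where Tmem8c is missing from the sum of EXO-BSA replicate 4 because its spot there had been left out. That of the proliferating myoblast genes was 26.5 to 34.1 and 28.1 to 40.2 times. Adipocyte genes summed to 0.897 to 1.1 and 1.09 to 1.83 times (2 of 6 above background on all arrays, Cfd on none), macrophage genes to 7.88 to 18.1 and 5.99 to 7.65 times (3 of 6), and endothelial genes to 4.15 to 5.28 and 3.05 to 6.2 times (2 of 4, Tek and Cdh5 on none). In RNA from a whole culture, fewer cells of a type and less of a transcript per cell cannot be told apart.

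Each value comes from a probe of 60 bases, and several genes have more than 1 probe at different places of the transcript. The last 30 bases of 7 probes are shown in the transcript's own direction, because the results turn on them or because they tell probes of the same gene apart. Capitals mark AATAAA, the hexamer that signals polyadenylation, which stands near the end of a transcript.
Ccnd1 A_66_P111562: gttttgtgttaattacagcattgtgctaat
Ccnd3 A_55_P2041075: ctgctgccttAATAAAgatttcagAATAAA
Ccnd3 A_51_P238448: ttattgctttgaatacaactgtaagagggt
Ccne1 A_51_P408946: gtaaggtgctgctatgtctatcaattttta
Cdkn1a A_51_P363947: gctgatcctttctcagtgttgaataccgtg
Cdkn1a A_55_P1986282: acgtcccactttgccagcagAATAAAaggt
Cdkn1b A_55_P2026562: ataatttttgtaatgtgtgaaaaagatgcc

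The probe A_55_P2041075 of Ccnd3 holds the hexamer 2 times and lies downstream of the other Ccnd3 probe, at base 2059 against base 1608 of their transcripts. The probe A_55_P1986282 of Cdkn1a holds it 1 time although it lies at base 55, in the start of a second transcript variant. Genome positions follow the annotation that came with the arrays, which uses the build mm9.

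Ccnd1 rose with EXO-Palm, and it was the only one of the 14 tested probes that passed the threshold, whereas the probes of Ccnd2 and Cdk4 changed by -0.07 to 0.29 on the log2 scale, with overlapping groups. Ccne1 was higher and Ccnd3 and Cdkn1b were lower on every EXO-Palm array than on every EXO-BSA array by their brightest probes, but none of these differences passed the threshold after adjustment. At an adjusted p of 0.05 in limma, 1 of 14 tested probes of the 10 genes was called, beside 0.533% of all probes tested. At an unadjusted p of 0.05, 2 of the 14 were higher, beside 4.85% of all tested probes, and 1 was lower, beside 5.19%. The groups did not overlap for 4 of the 14, beside 11.3% of all probes. The median change of the 14 probes was -0.10 on the log2 scale, and that of all tested probes was -0.02.

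**Figure D1:**
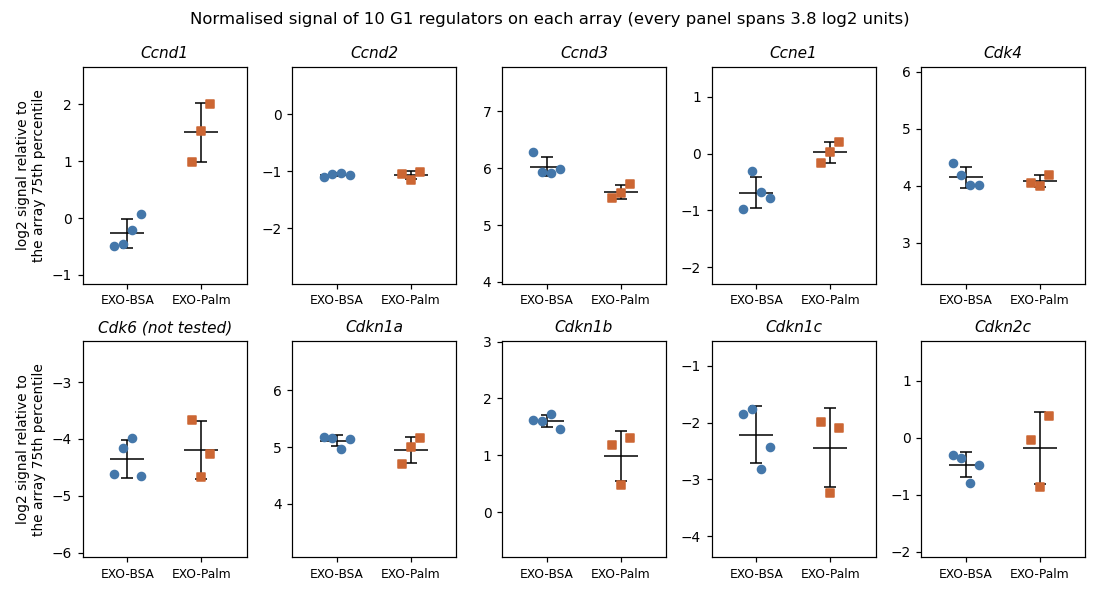
Log2 signal relative to the 75th percentile of the array (y axis) for the brightest probe of each gene, with 4 EXO-BSA arrays as circles, 3 EXO-Palm arrays as squares, and bars for the mean ± SD; every panel has a y axis of the same length. Ccnd1 lies between -0.49 and 0.07 with EXO-BSA and between 0.98 and 2.01 with EXO-Palm, and the groups also lie apart in the panels of Ccnd3, Ccne1 and Cdkn1b.

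Cyclin D1 is a D-type cyclin whose transcript rises in many cell types when growth factors are added. The Ccnd1 probe A_66_P111562 lies on the minus strand at chr7:152116202-152116261, at base 3370 of the transcript. Its background-subtracted intensities were 828, 663, 737 and 763 on EXO-BSA replicates 1 to 4 and 3202, 1867 and 2218 on EXO-Palm replicates 1 to 3. The 75th percentile of the arrays ran from 549 (EXO-Palm replicate 3) to 1621 (EXO-Palm replicate 1), so intensities of different arrays cannot be compared directly. On the normalised log2 scale the EXO-BSA arrays gave -0.49, -0.45, -0.21 and 0.07, and the EXO-Palm arrays 0.98, 1.53 and 2.01. The lowest EXO-Palm array was above the highest EXO-BSA array, and the EXO-Palm arrays were spread more widely, with an SD of 0.52 against 0.26.

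The difference between the means was 1.77 on the log2 scale (SE 0.28, 95% interval 1.13 to 2.42), which is 3.42-fold, with a limma adjusted p of 0.0421. The probe was 88th of all tested probes by p. An exact permutation test of the difference, 2-sided over the 35 ways to part the arrays into 4 and 3, gave p = 0.0286, the smallest p that 4 against 3 allows. Leaving out each of the 7 arrays in turn gave changes of 1.52 to 2.04 with adjusted p of 0.0528 to 0.157, so that the call rests on having all 7. The slides that held both groups gave differences of 1.45 (slide 1, 2 EXO-BSA arrays and 1 EXO-Palm array) and 1.94 (slide 3, 1 array of each). The call was lost with the slide as a fixed block (change 1.66, limma adjusted p = 0.0598). EXO-BSA replicate 3 and EXO-Palm replicate 2 were each alone on their slide, so such a block takes both out of the comparison.

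**Figure D2:**
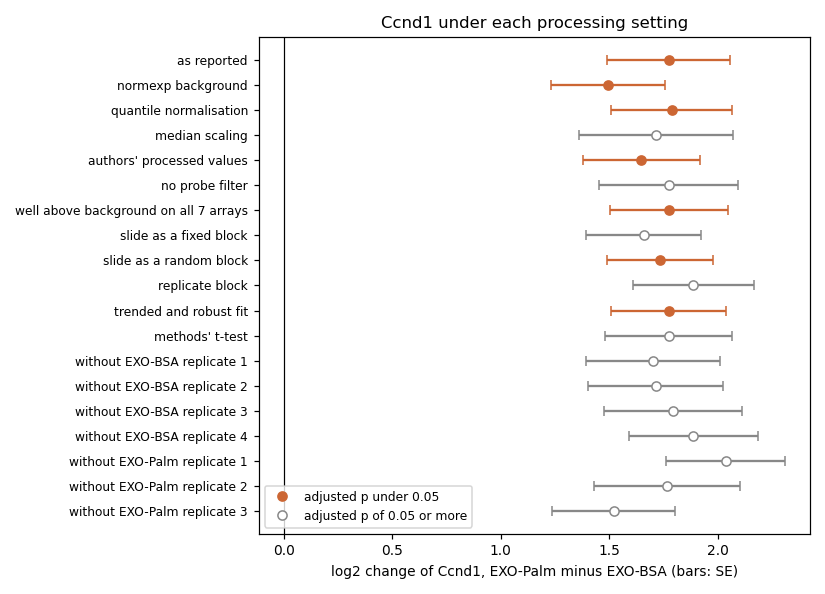
Log2 change of Ccnd1, EXO-Palm minus EXO-BSA (x axis, bars for the SE), under the reported processing and each of the 18 alternatives (y axis), filled where the adjusted p was under 0.05. The change lies between 1.50 and 2.04 throughout, and 7 of the 19 settings are filled.

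Of the 7 tested genes of proliferating myoblasts, the 2 that mark dividing cells rose with Ccnd1. Mki67, which codes for the proliferation antigen Ki-67, gave 0.49, 0.43, 0.08 and -0.29 with EXO-BSA and 2.39, 1.58 and 2.91 with EXO-Palm, a change of 2.12 (SE 0.34, limma adjusted p = 0.0436). Top2a, the topoisomerase of dividing cells, changed by 2.36 (SE 0.28, adjusted p = 0.0141). These 2 of the 7 were called, beside 0.486% of all genes called as higher by their brightest tested probe. The other 5 did not pass the threshold, with changes of -0.04 for Cdh15, 0.03 for Myod1, -0.02 for Id1, 0.35 for Id3 and -0.21 for Pax7, and the median of the 7 was 0.03. The summed signal of all 8 genes of proliferating myoblasts overlapped between the groups. Cdh15, the brightest of them (mean 4.42 with EXO-BSA and 4.38 with EXO-Palm), weighed most in that sum. The sum therefore follows Cdh15 more than the 2 genes that mark dividing cells. The study counts Myod1, also on this list, as a marker of terminal differentiation. The sum of the 15 myotube genes was lower on every EXO-Palm array, but only just (at most 864 against at least 868). Its brightest genes, Tnnc2 (change -0.33), Myh8 (-0.65) and Acta1 (-0.08), weighed most in it. Myog changed by -0.07 and Ckm by 0.35. None of the 15 myotube genes passed the adjusted threshold in limma. Their fitted changes were below 0 for 13 and above 0 for 2, while 9346 of all 17477 genes were below 0. Without overlap of the groups, Myh8 (-0.65), Mb (-0.60) and Myh3 (-0.46) were lower and Des (0.50) was higher. Over all 17477 genes, 11.4% had groups that did not overlap. The part that the number of dividing cells had in the change of Ccnd1 was not tested.

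Across the 7 arrays, the probes whose normalised values ran most like that of Ccnd1 were Traip (Pearson r = 0.991), a ubiquitin ligase, Rfc5 (0.987), a subunit of the clamp loader of DNA replication, the predicted gene Gm4148 (0.987), and the probes A_52_P222230 (0.984) and A_65_P08768 (0.983), which the array annotation names only by a transcript. These correlations describe 7 points that fall into the same pair of groups as Ccnd1. They were picked as the highest among the tested probes with a value on all 7 arrays (21137, Ccnd1 included).

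Ccnd2 codes for cyclin D2, and its probe A_52_P53906 lies at chr6:127098696-127098755. It gave -1.10, -1.04, -1.04 and -1.06 with EXO-BSA and -1.05, -1.15 and -1.02 with EXO-Palm. These 7 values span less than those of any other gene of the set, and the groups overlap. The difference was -0.01 (SE 0.18) with a 95% interval of -0.42 to 0.39, and the limma adjusted p was 0.99.

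Ccnd3 codes for cyclin D3, which also binds CDK4 and CDK6, and it has a pair of probes. The brighter one, A_55_P2041075 at chr17:47736579-47736638, gave 6.28, 5.93, 5.91 and 5.99 with EXO-BSA and 5.48, 5.56 and 5.72 with EXO-Palm. All 3 EXO-Palm arrays lay below all 4 EXO-BSA arrays. The difference was -0.44 (SE 0.20, 95% interval -0.88 to 0.01), with a limma p of 0.0553 before and 0.511 after adjustment and an exact permutation p of 0.0286. With the authors' own processed values it was only -0.12, and with another background correction (normexp) -0.22.

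The other Ccnd3 probe, A_51_P238448 at chr17:47736267-47736326, gave 4.75 to 4.95 with EXO-BSA and 4.20, 4.71 and 5.12 with EXO-Palm. Here the groups overlap, and the EXO-Palm arrays lie on both sides of EXO-BSA. The difference was -0.14 (SE 0.25, adjusted p = 0.883), and it turned to 0.12 with the authors' values. The gap between the brighter and the dimmer probe was 1.21 ± 0.18 with EXO-BSA (SD, n = 4) and 0.91 ± 0.34 with EXO-Palm (SD, n = 3), a shift with an exact permutation p of 0.229.

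The 3 D-type cyclins were also set against each other on each array, where the scaling of the array cancels. The log2 difference of Ccnd1 from Ccnd2 was 0.60 to 1.13 with EXO-BSA and 2.03 to 3.03 with EXO-Palm, a shift of 1.79. The difference of Ccnd1 from Ccnd3 shifted by 2.21 with the brighter and by 1.92 with the dimmer Ccnd3 probe, without overlap of the groups in either. The difference of Ccnd2 from Ccnd3 depended on the probe. It shifted by 0.42 without overlap with the brighter Ccnd3 probe, and by 0.13 with overlapping groups (-6.01 to -5.78 and -6.14 to -5.25) with the dimmer one. These pairs were formed with the changes of their genes known, so they are given as a description with no test.

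Ccne1 codes for cyclin E1, the partner of CDK2 at entry into S phase. Its probe A_51_P408946 on chromosome 7, for which the annotation places only 24 of the bases (chr7:38882937-38882960, minus strand), gave -0.98, -0.31, -0.67 and -0.78 with EXO-BSA and -0.17, 0.02 and 0.21 with EXO-Palm. All 3 EXO-Palm arrays lay above all 4 EXO-BSA arrays, although EXO-BSA replicate 2 came close to EXO-Palm replicate 1. The difference was 0.70 (SE 0.23, 95% interval 0.19 to 1.22), or 1.63-fold. Its limma p was 0.0131 before and 0.334 after adjustment, and the exact permutation p was 0.0571. It was 0.47 within slide 1 and 0.98 within slide 3, and under all 18 alternatives it stayed between 0.61 and 0.83 without an adjusted p under 0.05.

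A second probe of Ccne1, A_66_P125327 at chr7:38885574-38885633, was well above background on only 1 of 4 EXO-BSA and 1 of 3 EXO-Palm arrays and was not tested. It gave -5.35 to -4.48 with EXO-BSA and -4.72, -4.34 and -4.00 in order of size with EXO-Palm, and the groups overlap.

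The kinases that D-type cyclins activate showed no difference that passed the test. Cdk4 has 3 probes, all on the plus strand of chromosome 10 and well above background on every array. The brightest, A_55_P2163143 at chr10:126504279-126504338, gave 4.40, 4.19, 4.01 and 4.00 with EXO-BSA and 4.05, 3.99 and 4.20 with EXO-Palm. The EXO-Palm arrays fell within the range of EXO-BSA apart from EXO-Palm replicate 2, which was just under it. The difference was -0.07 (SE 0.20, 95% interval -0.52 to 0.38, adjusted p = 0.933).

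The neighbouring Cdk4 probe A_55_P1998188 (chr10:126504174-126504233) gave a difference of 0.01 (SE 0.32), with 1 EXO-Palm array at 3.81 and the others at 2.69 and 2.67, against 2.62 to 3.23 with EXO-BSA. The probe A_55_P2166639 (chr10:126503162-126503221) gave 0.29 (SE 0.23, 95% interval -0.24 to 0.82, adjusted p = 0.721), and this was 0.52 with the authors' values and 0.12 with the slide as a fixed block. The groups overlapped for all 3 probes, and exact permutation tests of the differences between probes gave p = 0.857, 0.143 and 0.629 (at least 0.571 after adjustment over the 6 pairs of probes of the same gene). The array annotation also lists a near copy of the Cdk4 transcript for these probes, so their signal may be shared with it.

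The probe of Cdk6, A_55_P2079630 at chr5:3522106-3522165, was well above background on 2 of 4 EXO-BSA and 1 of 3 EXO-Palm arrays and was not tested. Its values were -4.61, -4.16, -3.99 and -4.64 with EXO-BSA and -3.66, -4.67 and -4.26 with EXO-Palm, so the groups overlap. These values lie near the limit of detection, and no fold change is given.

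**Figure D3:**
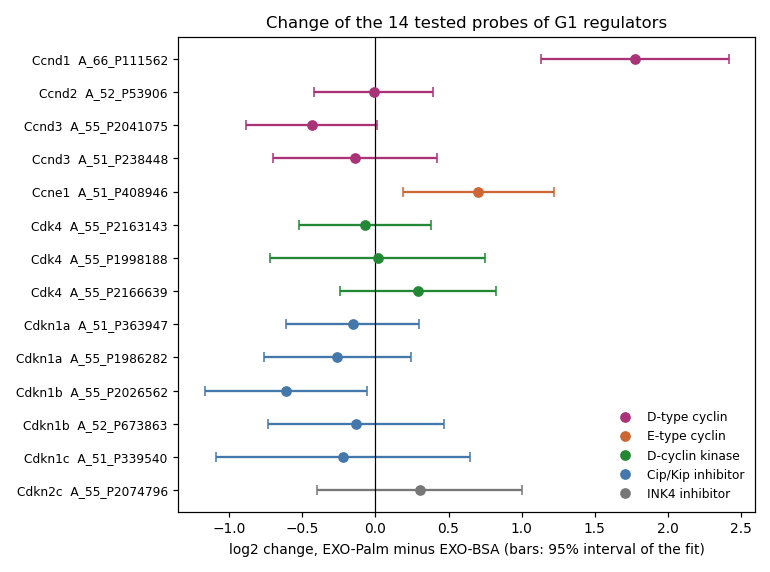
Log2 change, EXO-Palm minus EXO-BSA (x axis, dots), with the 95% interval of the limma fit (bars), for each of the 14 tested probes (y axis), coloured by the role of the gene. The intervals of Ccnd1 (1.13 to 2.42) and Ccne1 (0.19 to 1.22) lie above 0, that of the brighter Cdkn1b probe (-1.17 to -0.06) lies below 0, and the others span 0.

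Of the Cip/Kip inhibitors, 5 probes of 3 genes were tested and none passed the threshold. All 5 fitted changes were below 0, as were 11373 of all 21589 tested probes. They ran from -0.61 to -0.13 in the reported fit. Under the alternatives they reached -0.77, for the brighter Cdkn1b probe without EXO-Palm replicate 3. Cdkn1c came out above 0 with the slide as a fixed term (0.04) and without EXO-Palm replicate 2 (0.17). The dimmer Cdkn1b probe came out at 0.02 without EXO-BSA replicate 3. At an unadjusted p of 0.05 limma called 1 of the 5, beside 5.19% of all tested probes that were lower at that level.

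Cdkn1a codes for p21. Its main probe, A_51_P363947 at chr17:29237377-29237436, is printed 10 times per array, and 4 of its spots over the 7 arrays were left out as marked by the scanner software. It gave 5.18, 5.16, 4.97 and 5.13 with EXO-BSA and 4.71, 4.997 and 5.16 with EXO-Palm. The groups overlap, and the EXO-Palm arrays reach lower. The difference was -0.16 (SE 0.20, 95% interval -0.61 to 0.30, adjusted p = 0.832), and it was -0.03 without EXO-Palm replicate 1 and -0.26 without EXO-Palm replicate 3.

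The probe near the start of the other Cdkn1a variant, A_55_P1986282 (chr17:29227986-29228045), gave -2.52, -2.52, -2.73 and -2.54 with EXO-BSA and -3.07, -2.44 and -3.00 with EXO-Palm. The difference was -0.26 (SE 0.22, adjusted p = 0.737), again with overlapping groups, and it was -0.14 without EXO-Palm replicate 1, -0.46 without EXO-Palm replicate 2 and -0.51 with the slide as a fixed block. The log2 difference between the main and the variant probe was 7.69 ± 0.01 with EXO-BSA (SD, n = 4), and it was 7.78, 7.44 and 8.16 with EXO-Palm (exact permutation p = 0.6).

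Cdkn1b codes for p27. Its brighter probe, A_55_P2026562 at chr6:134875424-134875483, gave 1.63, 1.60, 1.72 and 1.47 with EXO-BSA and 1.19, 0.48 and 1.30 with EXO-Palm. All 3 EXO-Palm arrays lay below all 4 EXO-BSA arrays, with EXO-Palm replicate 2 far under the rest. The difference was -0.61 (SE 0.24, 95% interval -1.17 to -0.06). The limma p was 0.0343 before and 0.454 after adjustment, and the exact permutation p was 0.0286. It was -0.43 within slide 1 and -0.17 within slide 3. It shrank to -0.36 without EXO-Palm replicate 2 and to -0.31 with the slide as a fixed term. The fixed term also takes EXO-Palm replicate 2 out of the comparison, since that array was alone on its slide.

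The second probe of Cdkn1b, A_52_P673863 at chr6:134873606-134873665, belongs to another annotated transcript and gave -4.26 to -3.27 with EXO-BSA and -3.98, -3.87 and -3.74 in order of size with EXO-Palm. The EXO-Palm values fell within the range of EXO-BSA, and the difference was -0.13 (SE 0.27, adjusted p = 0.901).

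Cdkn1c codes for p57, and its probe A_51_P339540 lies at chr7:150644753-150644812. It gave -1.85, -1.76, -2.82 and -2.43 with EXO-BSA and -1.99, -3.23 and -2.09 with EXO-Palm. Both groups were widely spread and they overlap, and the difference was -0.22 (SE 0.38, 95% interval -1.09 to 0.65, adjusted p = 0.879).

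Cdkn2c codes for p18, the INK4 inhibitor of the set, and its probe A_55_P2074796 lies at chr4:109333508-109333567. It gave -0.30, -0.35, -0.79 and -0.47 with EXO-BSA and -0.03, -0.87 and 0.38 with EXO-Palm. The EXO-Palm arrays lay on both sides of EXO-BSA. The difference was 0.30 (SE 0.31, 95% interval -0.40 to 1.00, adjusted p = 0.78), and it was 0.29 within slide 1 and 0.85 within slide 3. Single arrays moved it widely, to 0.03 without EXO-Palm replicate 3 and to 0.65 without EXO-Palm replicate 2, and it was 0.53 with the slide as a fixed block and 0.17 with normexp.

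**Figure D4:**
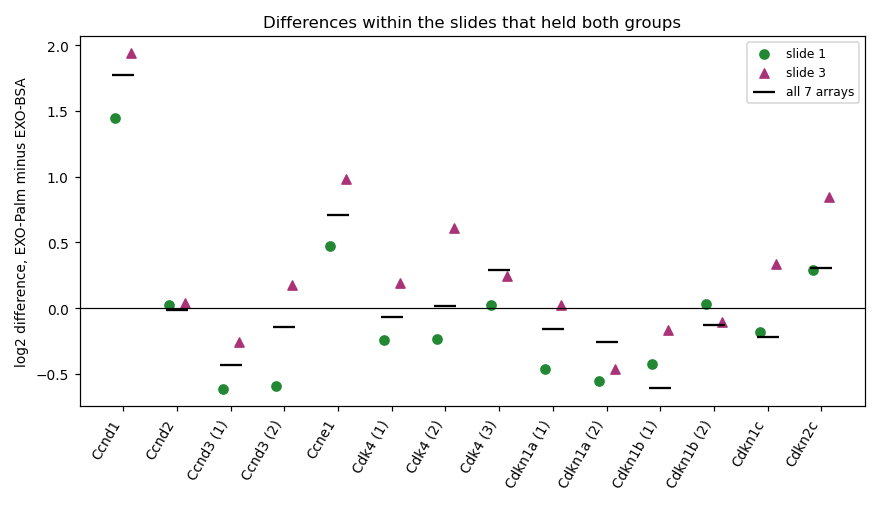
Log2 difference, EXO-Palm minus EXO-BSA (y axis), within slide 1 (circles, 2 EXO-BSA arrays and 1 EXO-Palm array) and slide 3 (triangles, 1 array of each group) beside the difference over all 7 arrays (dashes) for the 14 tested probes (x axis, numbered by brightness where a gene has several). Ccnd1 was higher within both slides, by 1.45 and 1.94, and Ccne1 by 0.47 and 0.98, while the brighter Ccnd3 and Cdkn1b probes were lower within both.

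The rest of the G1 machinery was described with 1 probe per gene, its brightest tested one, of which 0.561% passed the adjusted threshold over all 17477 genes, 4.70% were higher and 5.46% lower at an unadjusted p of 0.05, and 11.4% had groups that did not overlap. Of the other genes of G1 cyclins and kinases (such as Cdk2, its activating phosphatase Cdc25a, the chaperone gene Cdc37 and the INK4 gene Cdkn2d), 7 of 10 were tested, 0 were called at the adjusted threshold, 0 had an unadjusted p under 0.05 in limma, and 0 had groups that did not overlap. Their median change was -0.08. Cdk2, the kinase that cyclin E activates, changed by -0.34 (SE 0.24, adjusted p = 0.681).

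Of 18 genes of the RB and E2F pathway none passed the adjusted threshold in limma, 3 had a higher and 2 a lower signal at an unadjusted p of 0.05, and the median change was -0.10. The 3 higher were E2f1, E2f7 (1.01, adjusted p = 0.324) and Rbl1 (0.89, adjusted p = 0.397), the last 2 with overlapping groups. The 2 lower were Lin9 and Tfdp1. E2f1, an activating E2F, gave -0.86, -1.24, -0.97 and -0.92 with EXO-BSA and -0.68, -0.22 and -0.25 with EXO-Palm, a difference of 0.61 (SE 0.21, adjusted p = 0.379). Mybl2, an E2F target that acts with the MuvB complex, differed by 0.68 (SE 0.31, adjusted p = 0.511), also without overlap. Rb1, the retinoblastoma gene itself, gave 2.45, 2.08, 1.95 and 2.28 with EXO-BSA and 1.85, 1.77 and 1.82 with EXO-Palm, a difference of -0.37 (SE 0.20, adjusted p = 0.593). Lin9, a core subunit of MuvB, and Tfdp1, the partner of E2F in DNA binding, were also below EXO-BSA on every EXO-Palm array, with differences of -0.61 (adjusted p = 0.377) and -0.52 (adjusted p = 0.436).

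Of 17 genes for the turnover of G1 cyclins and inhibitors none passed the adjusted threshold in limma, 1 had an unadjusted p under 0.05, and the median change was 0.07. That gene was Cks1b, which codes for the cofactor that the SKP2 ubiquitin ligase needs to take up p27. It gave 1.59, 1.49, 2.09 and 1.82 with EXO-BSA and 2.53, 2.49 and 3.13 with EXO-Palm. All EXO-Palm arrays lay above all EXO-BSA arrays, and the difference was 0.97 (SE 0.25, adjusted p = 0.204).

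Cdkn1a is also a target of p53, and 24 of 25 genes of a list of p53 targets were tested. None passed the adjusted threshold in limma, 1 was higher and 3 were lower at an unadjusted p of 0.05, and the median change was -0.05. The groups did not overlap for Plk3, a stress-responsive polo-like kinase, with a difference of 0.61 (adjusted p = 0.471), and for the antiproliferative gene Btg2 (-0.79, adjusted p = 0.331), the proapoptotic gene Bbc3 (-0.43, adjusted p = 0.484) and the stress gene Sesn2 (-0.34, adjusted p = 0.621).

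The cyclins and kinase of mitosis gave other values. Of 13 genes tested 6 rose past the adjusted threshold, beside 0.486% of all genes. The list was chosen with earlier results of these data known, so this count is only a description. Cdc25c, the phosphatase that activates CDK1, was among these 6, but it was well above background on only 2 of 4 EXO-BSA arrays and entered the test through EXO-Palm alone, so no change is given for it. Of the 12 others 5 were called, and all 12 had fitted changes above 0, with a median of 1.85. Those called were Ccnb2 (2.82) and Ccnb1 (2.76), the B-type cyclins, Cdc20 (2.76), which activates the anaphase-promoting complex, and the mitotic kinases Aurka (2.40) and Plk1 (2.19), with limma adjusted p from 0.0108 to 0.0495. Ccnb1 was -0.81 to -0.72 on the EXO-BSA arrays and 1.44 to 2.62 on the EXO-Palm arrays. Whether the G1 genes as a set changed less than these was not tested.

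**Figure D5:**
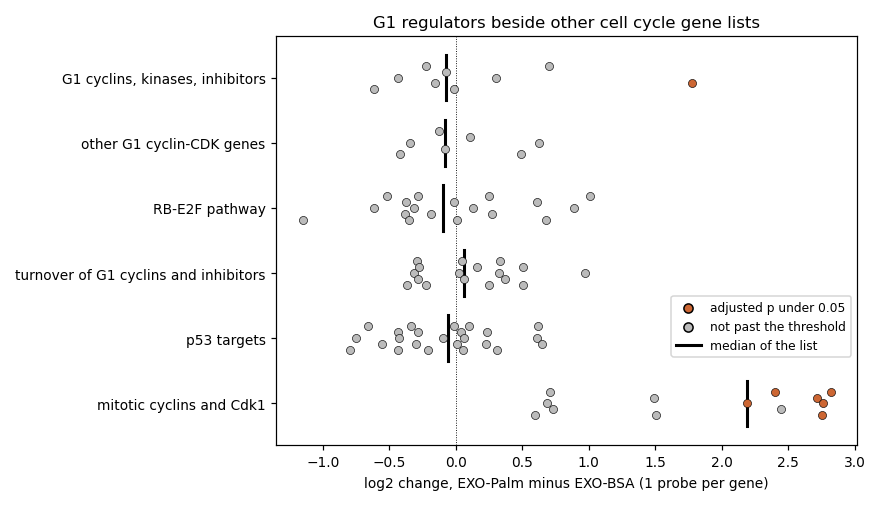
Log2 change, EXO-Palm minus EXO-BSA (x axis), of each gene by its brightest tested probe, for the 9 tested genes of the set and for other cell cycle lists (y axis), with genes past an adjusted p of 0.05 filled in orange and the median of each list as a line. The medians lie at -0.07 for the G1 cyclins, kinases and inhibitors and at 2.19 for the 13 mitotic genes, Cdc25c included. For the 12 mitotic genes past the filter in both groups, without Cdc25c, the median was 1.85. Among the lists drawn here, Ccnd1 is the only called gene outside the mitotic one. All lists were chosen with earlier results of these data known.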

How the data were processed

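RNA of 7 C2C12 cultures was hybridised to 1-colour Agilent mouse arrays (4x44K v2). Per the file headers, what the authors deposited is the scanner's processed intensity, background-subtracted and not normalised between arrays. The authors also deposited their own processed values on the log2 scale, which were joined to the spots by row order (rank correlation with the signal of the same array at least 0.9936). The methods name Agi4x44PreProcess and limma without settings. The labels give version 9.1 of the Feature Extraction software, whereas the headers give 10.7.3.1, and 11.5.1.1 for EXO-BSA replicate 3.

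Each array was scaled on the log2 scale to its 75th percentile, taken over 43020 non-control spots. Control spots and spots marked as uneven or as outliers were left out, and spots of a probe were averaged. Testing required a probe to exceed background clearly on 75% or more of the arrays in either group. The comparison used limma 3.58.1 (R 4.3.3) with Benjamini-Hochberg adjustment over the 21589 probes. Prior degrees of freedom were 3.67. Tested on simulated data of these groups and 21137 probes, the fit recovered 65 of 100 changes of 2 on the log2 scale. Of changes of 1 it recovered 11 of 100, and it made 0 false calls. The simulated noise was independent between probes and arrays and had no slide effect. In the real data the random slide block gave a correlation of 0.233 within slides. The 0 false calls are therefore no error rate of the real calls. The number of arrays limits the precision.

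All probes of the 10 genes are named, brightest first. From each other list, genes past the threshold are named, and otherwise up to 4 rises and 4 falls among genes whose groups do not overlap. The genes most like Ccnd1 are the 5 probes with the highest Pearson correlation. Cdk2, E2f7, Rbl1, Mki67, Top2a and the example Myog, Acta1 and Ckm were named besides. The genes and lists were chosen with earlier results of these data known, including the change of Ccnd1. Comparisons between D-type cyclins (described only) and between probes of a gene were added later. The alternatives were another background correction, other scalings, the authors' values, other filters, slide and replicate number as blocks, a trended robust fit, the methods' t-test and leaving out each array. For normexp the median signal was used, since the mean signal is not used here for EXO-BSA replicate 3.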

Additional observations from a re-analysis of the deposited data

Results flagged for a closer look

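Among the 16 probes, 1 had an EXO-BSA array that stood far from the other 3. The Cdkn1a probe A_55_P1986282 gave -2.73 on EXO-BSA replicate 3, while the others lay between -2.54 and -2.52, a gap of 0.903 of the whole range, which is beyond the critical value of Dixon's test at 95%. Chance gives such a gap in about 5% of groups, which is near 1 in 16. The array was read with a later version of the scanner software, and the part of this in the value was not tested.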

How the results depend on the processing

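Direction and call of Ccnd1 held under normexp background, quantile normalisation, the authors' values, the filter on all 7 arrays, the slide as a random block and the trended and robust fit (1 probe of the 10 genes called in each). The call was lost, leaving 0 probes of the 10 genes, with median scaling (1.72, adjusted p = 0.0571), without a probe filter (1.77, adjusted p = 0.202), with the slide as a fixed block (1.66, adjusted p = 0.0598) and with the methods' t-test (1.77, adjusted p = 0.237). That test called 4 of the 14 probes at an unadjusted p of 0.05, and 2108 of all probes, of which 0 passed after adjustment. Without each array in turn, 0 probes of the 10 genes were called, and the change of Ccnd1 was 1.52 to 2.04. The calls over all probes ranged from 4 to 228 when an array was left out (4 without EXO-Palm replicate 3, 7 without EXO-Palm replicate 1, 228 without EXO-Palm replicate 2) and from 0 to 181 under the other alternatives.

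Replicate numbers did not pair the arrays. The deviations of same-numbered arrays correlated at 0.121, -0.151 and -0.147, and no array was most like its own number. With the number as a replicate block the change of Ccnd1 was 1.89 (adjusted p = 0.12), and 0 probes of the 10 genes and 0 of all probes were called.

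Changes near 0 turned sign without a call. Ccnd2 gave 0.002 with normexp, 0.032 with the slide as a fixed block and -0.038 to 0.027 with an array left out. The dimmer Ccnd3 probe gave 0.12 with the authors' values and -0.36 to 0.10 with an array left out. Cdk4 gave 0.011 with the authors' values and -0.129 to 0.013 by its brightest probe, and -0.044 with median scaling and -0.36 to 0.21 by A_55_P1998188. Cdkn1c gave 0.037 with the slide as a fixed block and -0.45 to 0.17, and Cdkn1b A_52_P673863 -0.308 to 0.024, with an array left out. The cause of these shifts was not tested.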
